A study of Mus musculus with 6 samples.

Results

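Genes of cytosolic ribosomal proteins were taken by name: protein-coding rows with an Rpl or Rps symbol followed by a number, with or without a paralogue ending, and Rplp0 to Rplp2 and Rpsa. The rule gave 82 of the 55421 genes in the table, 51 of the large subunit and 31 of the small subunit. The measurements were RNA-seq read numbers per gene in 6 libraries, 3 labelled SFR KO and 3 labelled wildtype. Both groups came from C57BL/6 mice that carry an AID-GFP reporter, which marks cells that express the antibody-mutating enzyme AID with a green fluorescent protein. The mice had been immunised with ovalbumin bearing the hapten NP at a ratio of 18, in alum, and GFP-positive spleen cells were sorted on day 9. SFR KO mice carry a deletion from an intron of Cd244 to an exon of Slamf6 that takes in 7 SLAM family receptor genes (Cd244, Ly9, Slamf7, Cd48, Slamf1, Cd84 and Slamf6). The labels number the samples individually without naming separate mice, and the p-values therefore refer to sample-to-sample spread, which may be technical.

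In the ribosome the small subunit decodes the messenger RNA and the large subunit joins the amino acids. Each subunit holds ribosomal RNA and a fixed set of proteins, and the messenger RNAs of these proteins are among the most abundant of dividing cells. Most of them start with a pyrimidine tract (a 5′ terminal oligopyrimidine, or TOP, start), through which the growth kinase complex mTORC1 and the RNA-binding protein LARP1 control their translation and stability. B cells of the germinal centre, the site of antibody mutation and selection after immunisation, divide fast and depend on protein synthesis.

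The deleted genes held 17, 5 and 17 reads in all in SFR KO 1, 2 and 3, against 22247, 11043 and 10295 reads in wildtype 1, 2 and 3. The libraries held between 28269310 and 33053024 reads assigned to genes. Levels are given below as normalized reads, that is reads divided by a size factor per library. A mean of 10 normalized reads or more was reached by 80 of the 82 members, which were tested, 49 of the large and 31 of the small subunit. Rpl3l, a striated muscle form of Rpl3, had 0 reads in each library, and Rpl10l, a testis form of Rpl10, had 1 read in SFR KO 1 and 0 elsewhere.

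The start regions of 8 members are shown because the results below turn on these genes or because they compare a main gene with its paralogue. Each holds 40 bases before the start annotated by RefSeq on GRCm38.p6 and 30 bases from it, in the direction of the gene. Capitals mark the longest run of C and T between 30 bases before and 30 bases after the start. The stretch shown lies at chr7:141447611-141447680 on the plus strand for Rplp2, at chr17:33824533-33824602 on the minus strand for Rps28 and at chr17:27635215-27635284 on the minus strand for Rps10. It lies at chr5:107900488-107900557 on the plus strand for Rpl5, at chr4:152325686-152325755 on the plus strand for Rpl22 and at chr3:28805468-28805537 on the plus strand for Rpl22l1. For Rpl39 it lies at chrX:37085193-37085262 on the minus strand, and for Rpl39l at chr16:10170188-10170257 on the plus strand.
Rplp2: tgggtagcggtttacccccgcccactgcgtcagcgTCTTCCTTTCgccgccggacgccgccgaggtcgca
Rps28: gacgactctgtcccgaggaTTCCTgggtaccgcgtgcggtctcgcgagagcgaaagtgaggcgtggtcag
Rps10: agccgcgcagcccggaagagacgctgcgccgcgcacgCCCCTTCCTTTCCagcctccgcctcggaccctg
Rpl5: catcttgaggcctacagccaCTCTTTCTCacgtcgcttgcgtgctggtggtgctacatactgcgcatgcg
Rpl22: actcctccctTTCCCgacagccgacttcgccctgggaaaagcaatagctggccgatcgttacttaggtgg
Rpl22l1: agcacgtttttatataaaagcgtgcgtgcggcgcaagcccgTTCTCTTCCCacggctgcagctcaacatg
Rpl39: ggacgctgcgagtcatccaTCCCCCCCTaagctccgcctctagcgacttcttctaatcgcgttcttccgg
Rpl39l: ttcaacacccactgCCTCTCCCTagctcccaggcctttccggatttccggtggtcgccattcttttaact

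An unbroken run of at least 8 bases made of C and T, read in the direction of the gene, was found in this window in 34 of 60 members with a RefSeq start region (56.7%), against 21.3% of 9153 tested protein-coding genes. On the opposite strand such a run was found in 13.3% of members and 22.9% of these genes. The letters GGAAGT, searched on both strands of the 300 bases around the start, were found in 48.3% of members and 30.4% of these genes; the other strand of this motif, ACTTCC, can overlap a C and T run. Among the genes shown, Rplp2, Rps10, Rpl22l1, Rpl5, Rpl39 and Rpl39l hold a run of 8 or more in the window, and in Rps28 the longest run had 5 bases. The run of Rpl22 has 14 bases and is cut by the edge of the window, within which 5 of them lie (capitals). With runs that touch the window followed past its edges, 43 of 60 members (71.7%) held a run of at least 8 bases, against 24.9% of the 9153 genes. The RefSeq start differed from that of the principal GENCODE transcript by 2 bases for Rpl39l and 769 bases for Rps10, so a tract at the start in use can lie outside the window. The median log2 difference between the genotypes was 0.05 for the 34 members with such a run inside the window and 0.05 for the other 26.

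Ribosomal protein genes took up a similar share of the reads in both groups. Members held 6.03%, 5.64% and 5.38% of all reads in SFR KO 1, 2 and 3, and 5.58%, 5.28% and 5.56% in wildtype 1, 2 and 3. The means were 5.68% ± 0.327 in SFR KO and 5.47% ± 0.171 in wildtype libraries (SD, n = 3 each), a difference of 0.21 percentage points, smaller than the SD of the SFR KO group. The groups overlapped: SFR KO 1 was the highest of the 6 libraries and wildtype 2 the lowest, while SFR KO 3 lay below wildtype 1 and 3. The large subunit held 3.32%, 3.12% and 2.99% in SFR KO libraries against 3.09%, 2.94% and 3.09% in wildtype libraries. The small subunit held 2.71%, 2.52% and 2.40% in SFR KO libraries against 2.49%, 2.34% and 2.47% in wildtype libraries.

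Levels within the module spanned a wide range. Per length of the shortest principal transcript, the median over members was 26727 normalized reads per kilobase in SFR KO and 25346 in wildtype libraries. The highest were Rplp2 and Rplp1, the acidic stalk proteins that recruit elongation factors, and Rps27. Rplp2 stood at 74520.2 ± 5800.3 normalized reads per kilobase in SFR KO and 70757 ± 739 in wildtype libraries (SD, n = 3 each). Rplp1 stood at 70789 ± 5001 in SFR KO and 66311 ± 1942 in wildtype libraries, and Rpl32 at 59018 ± 3119.5 in SFR KO and 57129.8 ± 1326 in wildtype libraries, in the same unit. The neighbours Rplp2 and Rplp1 did not differ beyond the spread in SFR KO libraries, while in wildtype libraries the gap between them was larger than either SD. In the small subunit Rps27 stood at 69494 ± 4586 normalized reads per kilobase in SFR KO and 65158 ± 1534 in wildtype libraries, followed by Rps9 at 61405 ± 5477 in SFR KO and 59736 ± 2525 in wildtype libraries. Rps15 came next at 58078 ± 3803 in SFR KO and 56232 ± 1398 in wildtype libraries. It lay within the spread of Rps9 in SFR KO libraries, while in wildtype libraries the gap between them was larger than either SD. This order depends on the length used: over the joint exon length of all transcripts Rplp1 was first and Rplp2 was 24th of 80.

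At the low end of the large subunit stood Rpl39l, Rpl24 and Rpl7l1. Rpl39l, a paralogue of Rpl39 known from testis, had 10.8 ± 12.1 normalized reads per kilobase in SFR KO and 54.2 ± 30.8 in wildtype libraries. Rpl24 had 789 ± 136 in SFR KO and 809.7 ± 102 in wildtype libraries, and Rpl7l1 had 3103 ± 217 in SFR KO and 3192 ± 157 in wildtype libraries. Rpl24 shares 47% of its exon bases with a read-through gene model on the same strand, Gm28037, which was listed at 0 reads in each library. Rpl13a, a protein known in other cells for translational control of inflammatory messenger RNAs, shares 35.4% with Gm45713 and 2 small RNA genes on the same strand, and Gm45713 was also listed at 0. The levels of Rpl24 and Rpl13a are uncertain, since the authors' treatment of such reads was not stated in the labels or headers. In the small subunit the lowest were Rps10, Rps27l and Rps20, at 1917 ± 135, 4836 ± 426 and 11663 ± 754 normalized reads per kilobase in SFR KO and 1659 ± 102, 4432 ± 319 and 11139 ± 259 in wildtype libraries. The low place of Rps20 depends on the length used. It held 42253 normalized reads over a shortest principal transcript of 3706 bases, and over the joint exon length it was 35th of 80. Rps10 shares 28.7% of its exon bases with the read-through RPS10-NUDT3 on its own strand and Gm15420 on the other, and Rpl5, described below, 26.7% with Snord21 and Fam69a; both are uncertain for the same reason, and the strand setting of the counting was not stated.

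**Figure D1:**
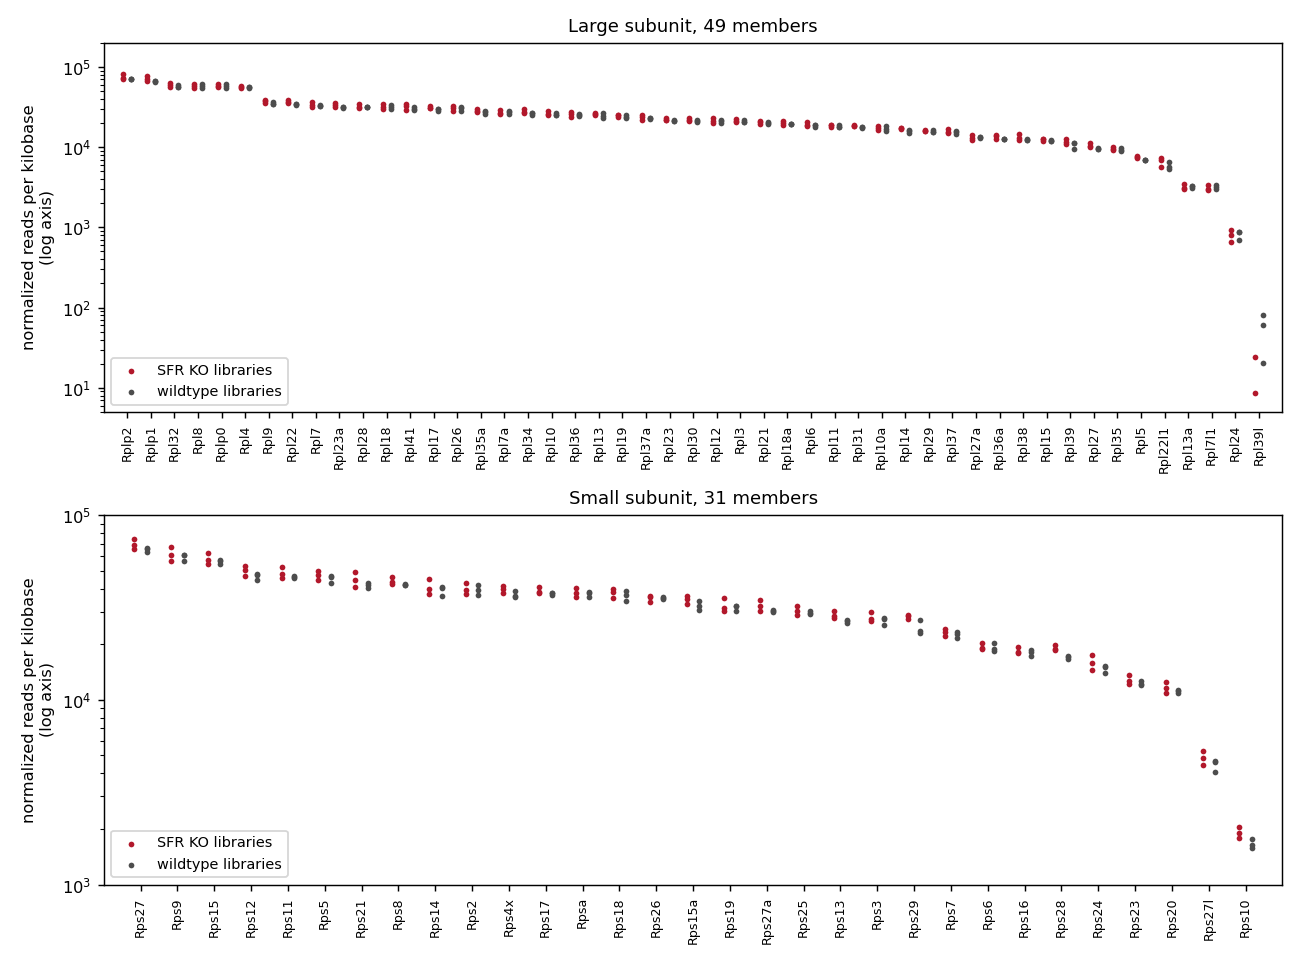
Normalized reads per kilobase of the shortest principal transcript (log axis) for the 49 tested large subunit members (above) and the 31 small subunit members (below), ordered by level; each point is a library, SFR KO in red to the left of wildtype in grey, and a library at 0 reads is not drawn. Rplp2 and Rps27 lie at the top of their subunits, and Rpl39l and Rpl24 and, in the small subunit, Rps10 lie at the bottom.

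No member passed the test between the genotypes in limma, edgeR or DESeq2. With limma on log2(normalized reads + 1) and Benjamini-Hochberg adjustment over 13562 genes, 0 of 80 members were higher and 0 were lower at an adjusted p under 0.05, where 0.155% of all tested genes were higher and 0.31% lower. The lowest adjusted p among members was 0.154. On the whole reads recovered from the values, edgeR called 0 members (0.0811% of genes higher, 0.14% lower) and DESeq2 called 0 (1.72% higher, 2.8% lower). The authors' deposited table also held 0 members with an adjusted p under 0.05 among the 79 with a value (1.79% of genes higher, 3.01% lower). At an unadjusted p under 0.05, limma gave 6 members higher and 1 lower, that is 7.5% and 1.25% of 80, against 7.04% and 9.07% of all tested genes. The share of higher members was thus near the background. At the same threshold edgeR gave 6 and 1 (7.48% and 8.4% of genes) and DESeq2 8 and 1 (5.98% and 7.74% of genes). In limma, edgeR and DESeq2 alike the lower member was Rpl39l, described below. It reached the level needed for testing only through the wildtype libraries, where it was higher, so the lower count is description only. With a filter of a mean of at least 50, which leaves Rpl39l out, limma gave 6 of 79 members higher and 0 lower, against 804 and 1159 of 10755 genes. Across 19 other settings 0 members were called in either direction, while the share of all genes called ran from 0.0295% to 2% for higher and from 0.0516% to 2.65% for lower genes.

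The fitted differences of most members had the same sign. A log2 difference above 0 was found for 75 of 80 members, 44 of 49 in the large and 31 of 31 in the small subunit, against 49.3% of all tested genes. The median log2 difference was 0.05 over members, 0.04 for the large and 0.06 for the small subunit, and -0.0030 over all tested genes. These signs were not stable for single members: 33 of 80 kept the sign under each of 21 alternatives, and 47 had the other sign under at least 1 of them. In 1 of the 21, each library was scaled to the members' median, which lowers the difference of every member alike. Under it 35 of 80 were below 0 (61.5% of all tested genes), which follows from the scaling. Without SFR KO 1, 28 were below 0 (50.2%). With each library's trend with transcript length removed, 30 were below 0 (53.3%). For the 77 members averaging 1000 normalized reads or more, SFR KO over wildtype ratios ran from 0.972 to 1.15 with a median of 1.04, and 74 were within 10% of wildtype. The members share libraries and a normalization, so a shared sign is not a count of independent observations.

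**Figure D2:**
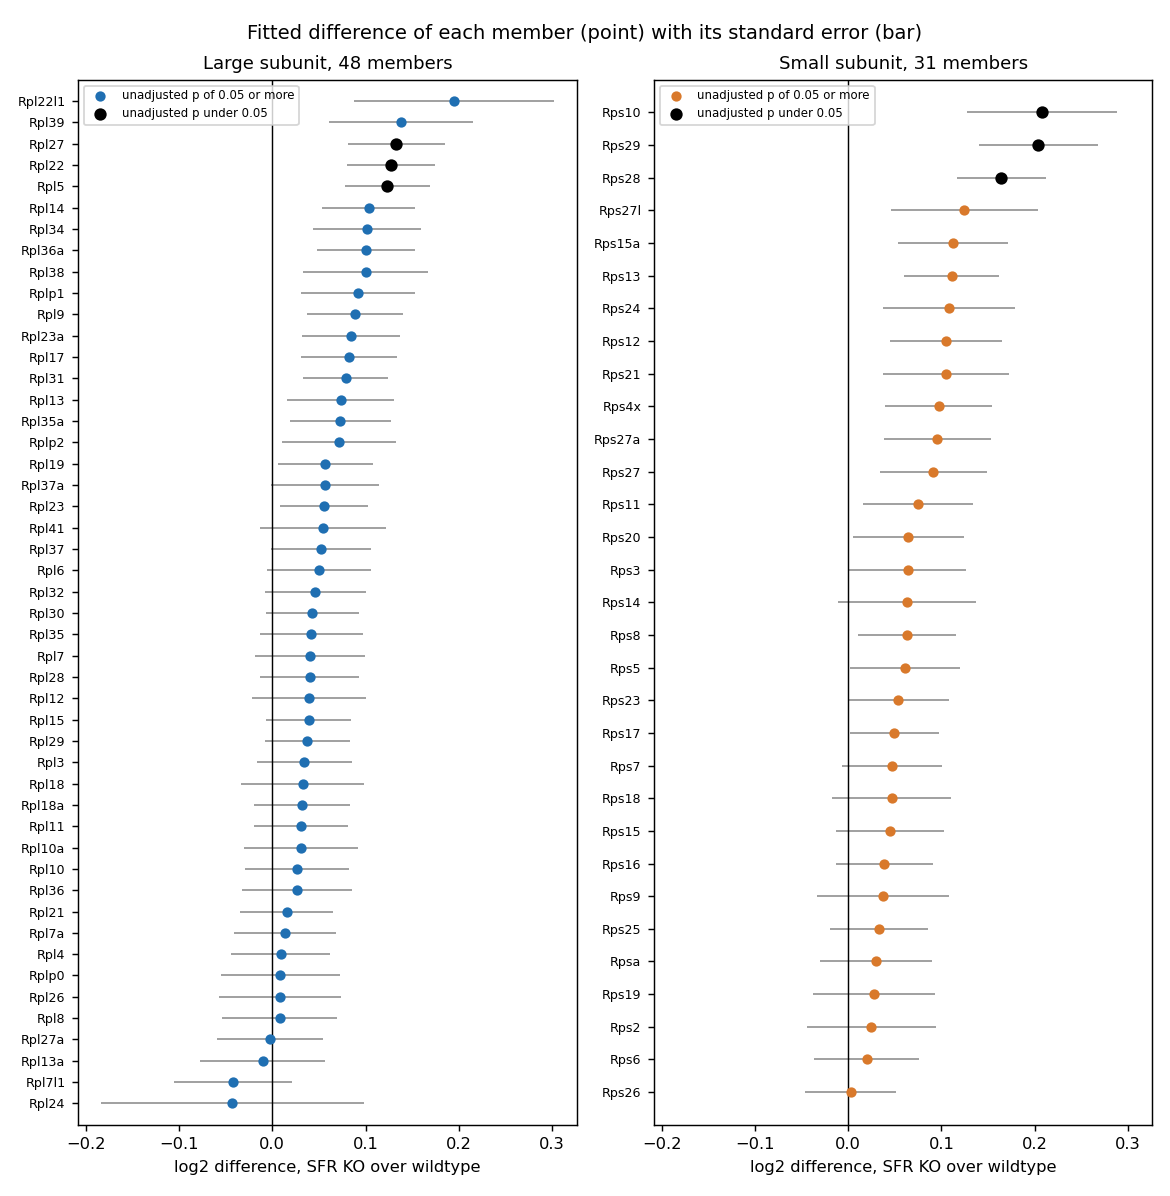
Fitted log2 difference of SFR KO over wildtype (x axis) for 48 large subunit members (left) and 31 small subunit members (right), with the standard error as a bar; black points have an unadjusted p under 0.05, and Rpl39l at -2.64 lies outside the axis and is not drawn. Points of the small subunit lie above 0 in 31 of 31 members, from 0.0027 for Rps26 to 0.21 for Rps10.

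The members moved together from library to library. Relative to each member's mean over the 6 libraries, the median log2 shift of members was 0.11, 0.02 and -0.05 in SFR KO 1, 2 and 3, and -0.01, -0.07 and -0.01 in wildtype 1, 2 and 3. Over all tested genes these medians were between 0.00 and 0.01 in each library. SFR KO 1 was above the members' own mean for 79 of 80 members, SFR KO 2 for 67 and SFR KO 3 for 11, and wildtype 1, 2 and 3 for 28, 5 and 35. Against the wildtype mean, 79 members were higher in SFR KO 1, 68 in SFR KO 2 and 26 in SFR KO 3. SFR KO 1 differed from SFR KO 3 by a median log2 of 0.15, which is more than the difference between the groups. Wildtype 1 exceeded wildtype 2 for 72 of 80 members. The subunits moved together: the median shift of the small subunit minus that of the large subunit was 0.02, 0.01 and -0.00 in SFR KO 1, 2 and 3, and 0.00, -0.01 and -0.01 in wildtype 1, 2 and 3.

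**Figure D3:**
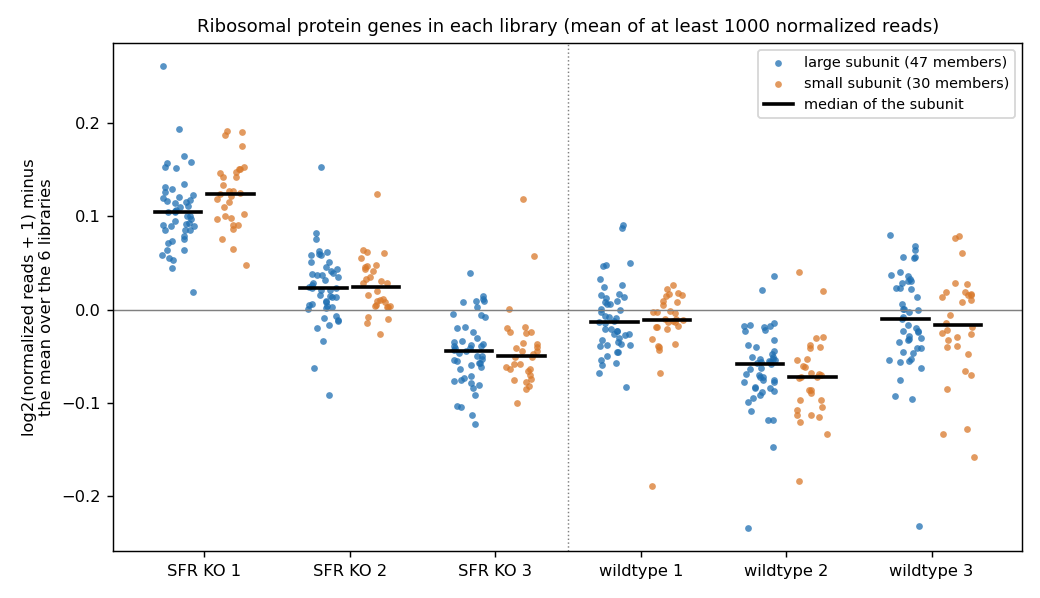
Each point is a member averaging 1000 normalized reads or more (47 of the large subunit in blue, 30 of the small in orange), plotted by library (x axis) as its log2(normalized reads + 1) minus its own mean over the 6 libraries (y axis); black bars are medians. Both subunits are high in SFR KO 1 and low in SFR KO 3 and wildtype 2.

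Without SFR KO 1 the median log2 difference of members was 0.01, and 52 were above 0 (49.8% of all tested genes). The same median was 0.09 when SFR KO 3 was left out and 0.03 when wildtype 2 was left out. Members are short, with a median length of the longest transcript of 1109 bases against 3046 over all tested genes. With each library's trend with transcript length removed the median log2 difference was 0.01 and 50 of 80 were above 0 (46.7% of all tested genes); with the trend with GC content removed it was 0.06 and 70 were above 0 (45.3%).

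**Figure D4:**
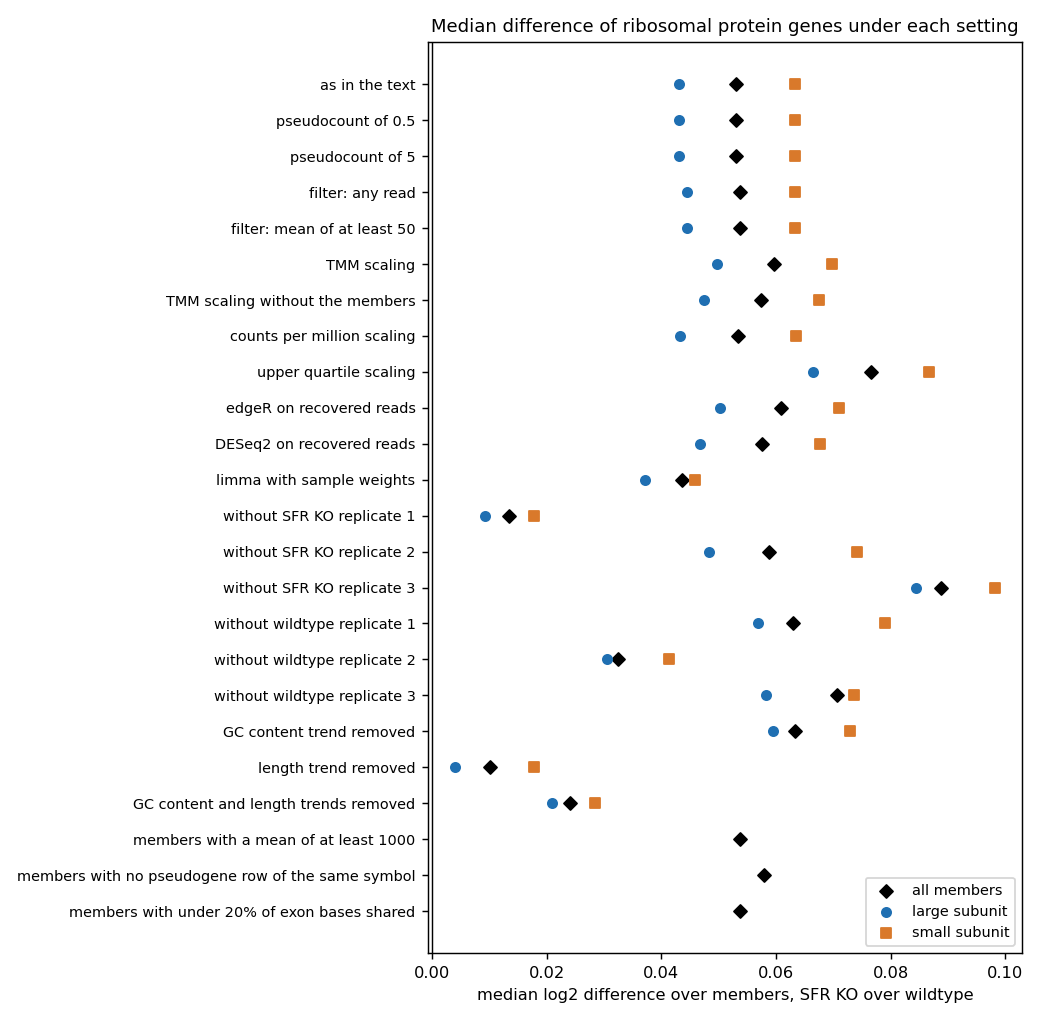
Median log2 difference of SFR KO over wildtype (x axis) over all tested members (black), the large subunit (blue) and the small subunit (orange) under each setting (y axis). Among the settings drawn the values lie nearest to 0 without SFR KO replicate 1 and with the trend with transcript length removed, at 0.01 each over all members.

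Other measures moved between the libraries as well. The 8 tested of 11 listed transcripts of the mitochondrial genome summed to between 757053 and 760973 normalized reads in SFR KO and between 463408 and 660682 in wildtype libraries, and limma called 2 of them higher (mt-Rnr1 and mt-Rnr2). Across the SFR KO libraries, whose ribosomal protein shares differed, these sums lay close together. Neutrophil and myeloid markers summed to 2562, 886 and 1149 normalized reads in SFR KO 1, 2 and 3 and to 5139, 1410.4 and 1123 in wildtype 1, 2 and 3, with 7 of 8 markers tested. Red cell markers summed to 4225, 1560.1 and 2971 in SFR KO libraries and to 7886, 1624 and 1435 in wildtype libraries, with 6 of 6 tested. Follicular B cell markers summed to 16894, 9119 and 9096 in SFR KO libraries and to 18151, 18302 and 14149.8 in wildtype libraries, and T cell markers to 4617, 6186 and 6943 in SFR KO libraries and to 4514, 4439 and 4278 in wildtype libraries. Most of the T cell sum was Lck, at 3920, 5288 and 6155 in SFR KO libraries and 3797, 3903 and 3927 in wildtype libraries. The median log2 difference of the T cell list was 0.67, and Cd8a went the other way at -0.43. Plasma cell markers summed to between 32630.4 and 33227 in SFR KO and between 29586 and 30242 in wildtype libraries, with 5 of 6 tested. Most of this sum was Jchain, at 26630.1, 25538 and 24789 in SFR KO libraries and 22214, 23175 and 22310.0 in wildtype libraries; the median log2 difference of the list was 0.0072, with Sdc1 at -0.59 and Irf4 at -0.13. Markers of germinal centre B cells, at sums between 215879 and 227328 in the 6 libraries, were present in each. No marker in these lists was at 0 reads in all libraries. Their part in the shift of ribosomal protein genes was not tested, and in bulk samples fewer cells of a type and less RNA per cell cannot be told apart.

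In the small subunit the members with the lowest p were Rps28, Rps29 and Rps10. Rps28, at the exit of the messenger RNA channel (chromosome 17, 33819027 to 33824562, minus strand, GRCm38), had 5394, 5050.3 and 5086 normalized reads in SFR KO 1, 2 and 3, against 4661, 4537 and 4654 in wildtype 1, 2 and 3. The lowest SFR KO library was above the highest wildtype library. The log2 difference was 0.16 ± 0.05 (SE), with an unadjusted p = 0.0072 and a limma adjusted p = 0.154. Rps29 (chromosome 12, 69157722 to 69159186, minus strand) had 10728, 11176 and 11133 normalized reads in SFR KO libraries and 8998, 10551 and 9196 in wildtype libraries. Its groups did not overlap, by a gap that rests on wildtype 2, and the log2 difference was 0.20 ± 0.06 (limma adjusted p = 0.176). With the trend with length removed it was 0.11. It was the member with the lowest adjusted p in DESeq2 (0.0532) and in the authors' deposited table (0.0605). Rps10 (chromosome 17, 27630418 to 27636669, minus strand) had 949, 1025 and 891 normalized reads in SFR KO libraries and 818, 781 and 881 in wildtype libraries, a log2 difference of 0.21 ± 0.08 (limma adjusted p = 0.249).

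In the large subunit Rpl5, Rpl22 and Rpl27 were higher at an unadjusted limma p under 0.05, and the scarce Rpl39l, described below, was lower. Rpl5 binds the 5S ribosomal RNA together with Rpl11, and this complex restrains the p53 inhibitor Mdm2 (chromosome 5, 107900502 to 107909005, plus strand). It had 15695, 15580.1 and 14808 normalized reads in SFR KO libraries, against 14169, 13962 and 14165 in wildtype libraries. Its groups did not overlap, and the log2 difference was 0.12 ± 0.05 (limma adjusted p = 0.233). With the trend with GC content removed it was 0.06 (limma unadjusted p = 0.255), and with both trends removed 0.03. The partner Rpl11 had 15865, 15632 and 14708 in SFR KO libraries and 14892, 14705 and 15618 in wildtype libraries, and its groups overlapped. Rpl22, which is dispensable for general translation and known for its role in lymphocyte development (chromosome 4, 152325742 to 152334071, plus strand), had 18227, 17495 and 16964 normalized reads in SFR KO libraries and 16233, 15797 and 16197 in wildtype libraries. The log2 difference was 0.13 ± 0.05 (limma adjusted p = 0.235). Rpl27 (chromosome 11, 101442298 to 101445529, plus strand) had 6824, 6251 and 6164 in SFR KO and 5773, 5807 and 5946 in wildtype libraries, a log2 difference of 0.13 ± 0.05 (limma adjusted p = 0.257). It was 0.09 without SFR KO 1 and 0.07 with the trend with length removed.

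Groups that did not overlap were found for 10 members, each higher in SFR KO, that is 12.5% of 80 against 9.78% of all tested genes, and for 0 members in the other direction against 11.9%. Beside the 6 just described these were Rpl31, Rpl17, Rpl14 and Rps13, with ratios of SFR KO over wildtype of 1.06, 1.06, 1.07 and 1.08. With each library scaled to the same median over members, 45 of 80 members were above 0 (38.5% of all tested genes). At an unadjusted p under 0.05, 1 was higher (Rps28) and 1 lower (Rpl39l), against 3.7% and 11.7% of all tested genes. The lowest adjusted p was 0.231, a value that Rpl39l had. Since Rpl39l was tested only through its wildtype level, its part in these values is description only.

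The members with the largest uncalled positive differences beside these were Rpl22l1 and Rpl39, at log2 0.19 ± 0.11 and 0.14 ± 0.08. Rpl22l1 had 4087, 3791 and 3132 normalized reads in SFR KO libraries and 3623, 3079 and 2902 in wildtype libraries, and its groups overlapped. At the lower end, beside Rpl39l, stood Rpl24, Rpl7l1, Rpl13a and Rpl27a, at log2 -0.04 ± 0.14, -0.04 ± 0.06, -0.01 ± 0.07 and -0.0024 ± 0.06. Rpl24 had 625, 538 and 441 normalized reads in SFR KO libraries and 592, 469 and 584 in wildtype libraries. Rpl7l1 had 4389.7, 3865 and 3940.1 in SFR KO libraries and 4385, 3975 and 4186 in wildtype libraries. In both, libraries of the same group differed by more than the group means. Rpl13a had 3679, 3214 and 3167 in SFR KO libraries and 3471, 3232 and 3412 in wildtype libraries, and Rpl27a had 16458, 15132 and 14359 in SFR KO libraries and 15433, 15524 and 15002 in wildtype libraries. The groups of these 4 members overlapped, and each has a difference smaller than its SE.

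Members known for a particular role were read by level alone. Of the stalk proteins, Rplp0, the base that holds Rplp1 and Rplp2, had 83506, 78077 and 75399 normalized reads in SFR KO libraries and 79432, 74248 and 81846 in wildtype libraries. Rplp1 had 37952, 35034 and 32986 in SFR KO libraries and 33674, 31971 and 33623 in wildtype libraries, and Rplp2 had 34071, 30732 and 29316 in SFR KO libraries and 29900.1, 29437 and 30028 in wildtype libraries. SFR KO 1 was the highest and the groups overlapped for each of the 3. Rpsa, which is also described as a laminin receptor, had 64898, 60606 and 57912 in SFR KO libraries and 60774, 57640.2 and 61079.6 in wildtype libraries.

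Rps6, the substrate of the S6 kinases and a common readout of mTORC1, had 17849.6, 16814 and 16516 normalized reads in SFR KO libraries, against 16512, 16135 and 17861 in wildtype libraries. Rps27a, made as a fusion with ubiquitin, had 22115, 20529 and 19233 in SFR KO libraries and 19395, 18948 and 19476 in wildtype libraries. Rps19 and Rps14, which in people are linked to anaemias of ribosome failure, had 22500.5, 19910.0 and 19146 and 26856, 23874 and 22419.6 in SFR KO libraries. In wildtype libraries Rps19 had 20505, 19284 and 20465 and Rps14 had 23945, 21689 and 24268. The groups of these 4 genes overlapped, and SFR KO 3 was the lowest library for Rps19.

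Rpl10, which is needed for the late joining of the subunits, had 22196, 20365 and 20022 normalized reads in SFR KO libraries and 21335, 19863 and 20206 in wildtype libraries. Rpl38, known for its role in translating Hox messenger RNAs in mouse embryos, had 5073, 4474 and 4262 in SFR KO libraries and 4262, 4185 and 4403 in wildtype libraries. Both overlapped between the groups. Rpl38 is uncertain, since pseudogenes named after it held 33% as many normalized reads as the gene itself. Pseudogene rows named after a member held a small share of reads in the table, with means of 0.0251% in SFR KO and 0.0243% in wildtype libraries. For Rps10 such rows held 22.7% as many as the gene.

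Several members have a paralogue, and some paralogues can take the place of the main gene's protein in the ribosome. The log2 ratio of paralogue to main gene was compared for 5 pairs with a two-sided exact permutation test over the 6 libraries, which cannot go below p = 0.1 with 3 against 3, adjusted over the 5 pairs. Rpl22l1, which Rpl22 is known to repress in mouse cells, stood at 22.4%, 21.7% and 18.5% of Rpl22 in SFR KO libraries and at 22.3%, 19.5% and 17.9% in wildtype libraries (exact p = 0.6, adjusted 0.8). Rps27l stood at 10.2%, 10.2% and 9.77% of Rps27 in SFR KO libraries and at 10.0%, 8.93% and 10.6% in wildtype libraries (exact p = 0.8, adjusted 0.8). Rpl7l1 stood at 10.5%, 9.86% and 10.8% of Rpl7 in SFR KO libraries and at 11.2%, 10.6% and 11.1% in wildtype libraries (exact p = 0.2, adjusted 0.5). For these 3 pairs the groups overlapped. Rps4l, listed as a pseudogene and thus not a member, stood at between 0.329% and 0.733% of Rps4x in SFR KO libraries and between 0.354% and 0.632% in wildtype libraries (exact p = 0.8, adjusted 0.8).

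The scarce Rpl39l stood apart from these (chromosome 16, 10170226 to 10174911, plus strand). It had 0, 13.1 and 4.68 normalized reads in SFR KO 1, 2 and 3, against 44.6, 11.3 and 33.5 in wildtype 1, 2 and 3. The groups overlapped, since SFR KO 2 was above wildtype 2. These values rest on 0, 12 and 5 reads in SFR KO libraries and 48, 11 and 33 reads in wildtype libraries. The summed reads, 17 in SFR KO and 92 in wildtype libraries, gave a depth-scaled ratio of 0.187 with an exact 95% interval of 0.105 to 0.316, which covers counting error alone and not the spread between libraries. The log2 difference was -2.64 ± 0.91 (limma unadjusted p = 0.0173, adjusted p = 0.213), and its size depends on the pseudocount and on SFR KO 1, without which it was -1.58. Rpl39l reached the mean of 10 normalized reads needed for testing only through the wildtype libraries, where it was higher. Its p-values are therefore given as description only. Relative to Rpl39, with 7674, 7144 and 6755 normalized reads in SFR KO and 6973, 5821 and 6851 in wildtype libraries, it stood at 0%, 0.184% and 0.0693% in SFR KO libraries and at 0.64%, 0.194% and 0.489% in wildtype libraries. This ratio did not overlap between the groups, by the narrow gap between SFR KO 2 and wildtype 2 (exact p = 0.1, the smallest possible, adjusted 0.5). The log2 ratio difference was -2.77, and -1.67 without SFR KO 1.

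**Figure D5:**
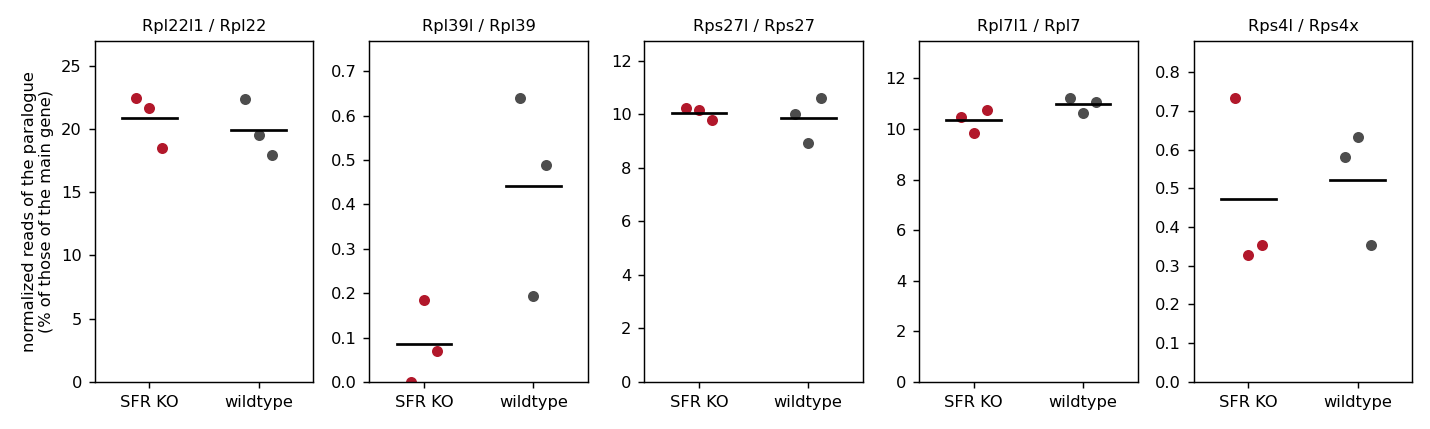
Normalized reads of each paralogue as a percentage of those of its main gene (y axis, from 0, a scale per panel) in SFR KO (red) and wildtype (grey) libraries; bars are means of 3. The groups overlap for Rpl22l1, Rps27l, Rpl7l1 and Rps4l; for Rpl39l the highest SFR KO library, at 0.184%, is just below the lowest wildtype library, at 0.194%.

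Genes that share the TOP start or act on it were read beside the module, as lists of known function. Limma called 0 genes in each of the 6 lists (0.155% of all tested genes higher, 0.31% lower), and so did edgeR (0.0811% and 0.14%). DESeq2 called 2 higher in the list of other TOP messenger RNAs and 0 elsewhere (1.72% of genes higher, 2.8% lower). Of 23 other TOP messenger RNAs, 18 had a log2 difference above 0, against 49.3% of all tested genes, with a median of 0.04. Limma gave 3 higher and 0 lower at an unadjusted p under 0.05, against 7.04% and 9.07% of all tested genes. The lowest p was that of Nap1l1, a histone chaperone, with 36995, 36499 and 36979 normalized reads in SFR KO libraries and 31959.9, 31390.1 and 30257 in wildtype libraries (log2 0.24 ± 0.05, limma adjusted p = 0.0624). Hnrnpa1, an RNA-binding protein, had 17224, 16608 and 16683 in SFR KO and 13934, 15226 and 13889.8 in wildtype libraries (log2 0.23 ± 0.05, adjusted p = 0.0905). In neither gene did the groups overlap, and both passed in DESeq2 and in limma with sample weights; Nap1l1 also passed in limma with the length trend removed or with SFR KO 1 left out, and had a log2 difference of 0.12 with the GC trend removed (limma adjusted p = 0.302). The median of the list was 0.0021 with SFR KO 1 left out, 0.08 with SFR KO 3 left out, and 0.02 with the GC or the length trend removed.

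A further list held 8 genes outside the module that are named as ribosomal proteins or bind them or the ribosome. Among them were Rps4l, listed as a pseudogene, Rpl9-ps6, with a pseudogene name, and Rps19bp1, which is not a ribosomal protein. The list had a median log2 difference of 0.05, with 6 of 8 above 0 against 49.3% of all tested genes. Limma gave 0 at an unadjusted p under 0.05, against 7.04% higher and 9.07% lower of all tested genes. This median was 0.0089 with SFR KO 1 left out, 0.0043 with sample weights, 0.01 without wildtype 1, 0.08 without SFR KO 3 or wildtype 3, and -0.0023 with the length trend removed. The lowest p among them were those of Rpl9-ps6, at log2 0.30 ± 0.17 (limma adjusted p = 0.43), and Rps3a1, the mouse gene of a small subunit protein, at 0.09 ± 0.06 (adjusted p = 0.533). Host genes of small nucleolar RNAs, which also carry TOP starts, had a median of 0.13 over 9 of 10 tested genes, 6 of them above 0 against 49.3% of all tested genes. Limma gave 2 higher at an unadjusted p under 0.05, against 7.04% of all tested genes. The 2 were Snhg3, with 189, 178 and 188 normalized reads in SFR KO and 132, 144 and 122 in wildtype libraries (log2 0.48 ± 0.14, limma adjusted p = 0.145), and Gas5, at log2 0.14 ± 0.06 (adjusted p = 0.259). The median of the host genes was 0.07 with SFR KO 1 left out or the length trend removed, 0.05 with the GC trend removed, and -0.03 with the trends with GC content and length removed.

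Genes of TOP control by mTORC1 and LARP1 had a median log2 difference of -0.12, with 12 of 17 below 0 against 50.7% of all tested genes. Limma gave 0 higher and 7 lower at an unadjusted p under 0.05, against 7.04% and 9.07% of all tested genes. With the trends with GC content and length removed this median was -0.07 and 3 were lower at that threshold. With upper quartile scaling 2 were higher and 5 lower at it, against 1223 and 941 of 13562 genes. With sample weights these were 2 and 8, against 1412 and 1683. Rheb and Rps6kb1 went the other way in the main fit, at log2 0.12 ± 0.06 and 0.11 ± 0.06. The list joins genes of mTORC1 and targets that mTORC1 inactivates, so its median gives no direction of TOP control. Larp1, the TOP-binding protein, had 8798, 9544 and 9428 normalized reads in SFR KO libraries and 10146, 10419 and 10209.9 in wildtype libraries. The groups did not overlap, and the log2 difference was -0.15 ± 0.05 (limma adjusted p = 0.193). Eif4ebp2, a repressor of cap-dependent translation that mTORC1 inactivates, had 15391, 16556 and 17075 in SFR KO libraries and 18237, 18198 and 18117 in wildtype libraries (log2 -0.16 ± 0.05, adjusted p = 0.196). In this list SFR KO 1 was the lowest library, with a median shift of -0.11, where the members were highest.

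For the RNA polymerase I machinery, which makes ribosomal RNA, the median was -0.05 over 12 genes, with 1 higher and 3 lower at an unadjusted p under 0.05, against 7.04% and 9.07% of all tested genes. The lowest p were those of Ubtf, an activator of ribosomal DNA, at log2 -0.19 ± 0.07 (limma adjusted p = 0.212), and Taf1c, a subunit of its selectivity factor, at -0.24 ± 0.08 (adjusted p = 0.22). Without wildtype 1 this median was -0.01. Factors of ribosome quality control and partners of ribosomal proteins had a median of -0.05 over 16 genes, with 12 below 0 against 50.7% of all tested genes. Limma gave 2 lower at an unadjusted p under 0.05, against 9.07% of all tested genes. This median was -0.03 with SFR KO 3 left out and -0.09 with the GC trend removed. The 2 lower genes were Zfp598, a ligase that senses collided ribosomes, at log2 -0.22 ± 0.07 (limma adjusted p = 0.164), and Efl1, which helps to release eIF6 from the large subunit, at -0.19 ± 0.06 (adjusted p = 0.193).

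The spread between libraries set what could be seen. For the 77 members averaging 1000 normalized reads or more, the median coefficient of variation was 5.6% in SFR KO and 3.09% in wildtype libraries, against 5.07% and 4.45% for all 5536 tested genes at that level. Their median SE was 0.06 on the log2 scale. Differences of the size of the module's median were below this SE for single members.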

How the data were processed

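RNA-seq of 3 SFR KO and 3 wildtype libraries was read from 1 table, with replicates numbered in accession order. The tools and build named in the submitters' processing notes were STAR 2.5, featureCounts 1.5, DESeq2 1.14.1 and GRCm38; annotation release, strand setting and filters were not stated. The authors deposited reads per gene divided by size factors, a signal, with their mean. Beside these the authors deposited a log2 fold change and its standard error, a score (the test statistic) and a p-value, raw and adjusted. All values (100%, tolerance 1e-06) were whole multiples of 1 step per library, which gave back whole reads for count tests. Rows without a symbol (12) held 0.000834% of reads.

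Genes averaging 10 normalized reads or more were fitted with limma 3.58.1 (trend, two-sided; R 4.3.3) on log2(value + 1), with Benjamini-Hochberg adjustment over 13562 genes and a threshold of 0.05. This scale understates the change of low genes. Other settings were the pseudocount, the filter, the scaling, edgeR 4.0.16 (quasi-likelihood), DESeq2 1.42.0, sample weights, single libraries left out, and trends with GC content or length taken out per library (GENCODE M21; natural splines with 4 degrees of freedom). Scaling to the members' median and leaving out members with at least 20% shared exon bases were added after seeing the data. The steps were tested on simulated counts. Promoters came from RefSeq (GRCm38.p6), which matched 62 members; 60 were tested with 300 bases each.

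The members and lists were chosen with earlier results of these data known. Named members are those with an unadjusted p under 0.05, the 5 highest and 5 lowest differences, the 3 highest and 3 lowest levels per subunit, chosen roles and paralogues. Rpl31, Rpl17, Rpl14 and Rps13 were named after their values were seen. From each list up to 4 called genes, or else the 2 with the lowest p, are named.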

Additional observations from a re-analysis of the deposited data

How the results depend on the processing

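No member passed an adjusted p of 0.05 in either direction under the 21 alternatives, edgeR and DESeq2 among them. Over the settings without single libraries the median log2 difference ran from 0.013 to 0.089 over members, from 0.0092 to 0.084 in the large and from 0.018 to 0.098 in the small subunit, and the difference in read share from 0.036 to 0.36 percentage points. Scaled to the members' median these medians were 0.007, -0.003 and 0.017, which follows from the scaling.

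Under at least 1 of the 21 alternatives 47 of 80 members had the other sign, among them Rpl10 (-0.064 to 0.057), Rplp0 (-0.037 to 0.042), Rps6 (-0.026 to 0.074) and Rpsa (-0.016 to 0.068). The lower ends of Rplp0, Rps6 and Rpsa come from scaling to the members' median, which lowers every member alike, and follow from that scaling. These 3 genes had the other sign under 5, 4 and 2 of the 21 alternatives. Of the members with the highest and lowest differences, Rpl27a, Rpl13a and Rpl24 had the other sign under at least 1 alternative. Rpl27a had a log2 difference of 0.0042 with TMM scaling, 0.0019 with TMM scaling without the members, 0.021 with upper quartile scaling, 0.0066 in edgeR and 0.0031 in DESeq2, and ran from -0.055 to 0.043 without single libraries. Rpl13a had 0.013 with upper quartile scaling and 0.023 with the GC trend removed, and ran from -0.079 to 0.029 without single libraries; Rpl24 ran from -0.16 to 0.088. Without single libraries the log2 ratio difference ran from -3.63 to -1.67 for Rpl39l to Rpl39, from -0.0056 to 0.15 for Rpl22l1 to Rpl22, from -0.035 to 0.088 for Rps27l to Rps27 and from -0.57 to 0.0064 for Rps4l to Rps4x, turning negative without wildtype 3 and wildtype 2 for Rpl22l1 and Rps27l and positive without SFR KO 2 for Rps4l. The cause was not tested. No paired analysis was possible because the labels carry no replicate numbers shared between the groups. Depth limits Rpl39l, with 17 reads in SFR KO and 92 in wildtype libraries.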
